A study of Mus musculus with 8 samples.

Results

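RNA-seq of bone mesenchymal stem cells (MSCs) held at low or high oxygen was used to follow 8 genes of cholesterol synthesis and its control. They were chosen by symbol, among 53465 gene identifiers in the count table, as known targets and the gene of sterol regulatory element-binding protein 2 (SREBP2): Hmgcs1, Idi1, Fdps, Sqle, Lss, Dhcr7, Insig1 and Srebf2. All 8 passed the filter on low counts, as did 14369 genes in all. The cells came from the hind limbs of male wild-type C57BL/6N mice of 3 to 5 months, grew out of bone chips at 2% oxygen and were sorted on day 12 as CD45-/TER-119-/CD140a+/Sca-1+. Hypoxia samples (n = 4) were then cultured at 2% oxygen and normoxia samples (n = 4) at 21% oxygen, with 5% carbon dioxide and the same control medium in both. The study describes dividing a sorted population between the oxygen levels and assaying it after 7 days. Neither group had a transgene, drug or differentiation medium per these sources, and how many mice gave each sample is not given in the sources used here. The study calls its replicates biologically independent, and the p-values measure the spread between them.

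Total counts ranged from 12898291 to 25132141 per sample, with hypoxia sample 1 the deepest, and 3 counts corresponded to 0.119 to 0.233 CPM, the unit of counts scaled to library size, here with TMM factors that correct for library composition. Of 6 genes known to respond to low oxygen 5 were lower in normoxia, and none was higher, where 16.5% of all tested genes were lower. In either direction 34.6% of all tested genes passed the test, or 46.0% with the replicate number as a block. The 9 MSC markers summed to 2683 to 3466 CPM and none was at 0. Of these 3 passed the test, 2 higher and 1 lower in normoxia, or 8 with the block. The 7 macrophage markers summed to 474 to 934 CPM in hypoxia and 587 to 1090 CPM in normoxia, in cells that had been sorted against the leukocyte antigen CD45, and 1 of the 7, Lyz2, passed the test, or 4 with the replicate number as a block. Summed levels were 45.2 to 119 CPM for 7 adipocyte markers with Lep at 0, and 111 to 234 CPM for 6 osteoblast markers, of which 2 of 4 tested were lower in normoxia. The 5 endothelial markers, with Emcn at 0, reached at most 2.65 CPM, the 4 erythroid markers, with Hba-a1 and Hbb-bs at 0, reached at most 0.231 CPM, and the 9 genes of cycling cells summed to 276 to 483 CPM. In bulk RNA of this kind, fewer cells of a type and less RNA per cell cannot be told apart.

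Cholesterol is built from acetyl-CoA through the mevalonate pathway. HMG-CoA synthase opens the way to mevalonate, a series of kinases and isomerases turns it into isoprenoid units, and these are joined to farnesyl diphosphate and then squalene. Squalene is oxidized and folded into lanosterol, which a last set of enzymes trims to cholesterol, several of them using molecular oxygen. SREBP2, the product of Srebf2, is made as a membrane-bound precursor that the escort protein SCAP carries to the Golgi for cleavage when sterols are scarce, and INSIG proteins hold SCAP back when sterols are plentiful. The released part enters the nucleus, binds sterol regulatory elements (SREs) beside sites for NF-Y and Sp1, and raises the transcription of most enzymes of the pathway, of Insig1 and of Srebf2 itself.

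The promoter stretches of the 3 genes that passed the test, and of Insig1, are shown because SREBP2, NF-Y and hypoxia-inducible factors are known to act at such sites. They were read from RefSeq on GRCm38.p6, where 6 of the 8 genes had a promoter window from 250 bases before to 50 bases after a transcription start, and Dhcr7 had 3 windows, of which the one shown lies inside the annotated gene, before a start within it. Printed are the 250 bases before the start on the plus strand, 5′ to 3′, and capitals mark CCAAT (NF-Y), ACGTG (the core of a hypoxia response element, which is also contained in the E-box CACGTG) and matches, with at most 1 other letter, to a known 10-base SRE, each on either strand. That SRE is TCACNCCAC with a C at the N and an A in front.
Hmgcs1, chr13:119690101-119690350: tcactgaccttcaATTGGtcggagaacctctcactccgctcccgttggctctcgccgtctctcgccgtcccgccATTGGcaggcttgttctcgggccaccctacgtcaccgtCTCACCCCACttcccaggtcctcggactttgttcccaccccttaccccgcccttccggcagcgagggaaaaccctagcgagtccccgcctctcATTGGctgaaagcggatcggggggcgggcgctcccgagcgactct
Srebf2, chr15:82147019-82147268: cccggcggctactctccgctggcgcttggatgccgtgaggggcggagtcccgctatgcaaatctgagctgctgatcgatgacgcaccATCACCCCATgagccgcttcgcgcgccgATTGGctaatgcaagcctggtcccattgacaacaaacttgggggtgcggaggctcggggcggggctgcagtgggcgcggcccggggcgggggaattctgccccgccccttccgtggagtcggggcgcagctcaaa
Dhcr7, chr7:143829964-143830213: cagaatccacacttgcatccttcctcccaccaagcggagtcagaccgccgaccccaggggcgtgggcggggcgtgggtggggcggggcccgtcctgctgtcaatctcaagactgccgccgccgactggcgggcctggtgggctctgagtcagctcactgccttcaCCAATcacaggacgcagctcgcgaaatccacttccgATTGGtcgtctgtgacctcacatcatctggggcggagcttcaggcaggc
Insig1, chr5:28071162-28071411: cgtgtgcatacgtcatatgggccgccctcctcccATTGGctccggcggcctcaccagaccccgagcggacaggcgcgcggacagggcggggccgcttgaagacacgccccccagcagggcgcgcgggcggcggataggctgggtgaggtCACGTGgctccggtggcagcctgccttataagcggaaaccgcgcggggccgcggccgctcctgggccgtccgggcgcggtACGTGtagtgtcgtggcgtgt

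The 6 genes had 8 windows in all. CCAAT was found in 6 of the 8, at least 1 for each gene but in only 1 of the 3 of Dhcr7, and in 37.4% of 32851 promoter windows of the genome. The GC box GGGCGG, a site of the Sp1 type, was found in 7 of the 8 windows and in 35.7% of all. No window of the 6 genes held the full SRE, which was present in 0.0913% of windows. With at most 1 other letter it was found in Hmgcs1, starting 138 bases before the start, and in Srebf2, starting 163 bases before the start, against 1.95% of windows. The Hmgcs1 site also matched the looser pattern TCACNCCAC, which overlaps the SRE and was found in 1.24% of windows. ACGTG was found in 2 of the 8 windows, that of Insig1 and 1 of Dhcr7 that is not printed, against 19.6% of windows. Among 14 other synthesis enzymes 13 had a window, with 14 windows in all, of which 12 held CCAAT, 11 the GC box and 1, that of Nsdhl, an SRE with at most 1 other letter. These matches are letters in a window and say nothing of binding.

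In normoxia 2 of the 8 genes were lower, 1 was higher and 5 did not pass the test, which is 37.5% called against 34.6% of all 14369 tested genes (18.0% higher and 16.5% lower). The call was an adjusted p under 0.05 in limma-trend, a linear model of log2 CPM fitted over all genes. With library totals in place of TMM factors, 25.1% of all genes were called higher and 11.0% lower, and the 3 calls among the 8 genes kept their direction. With the replicate number as a block 3 of the 8 genes were called, the same 3, against 46.0% of all genes, and with a correction that removes, in each sample, trends with GC content and transcript length (and true changes that follow them) 2 of the 8, against 30.0%. With both together 3 of the 8 were called, Idi1 in place of Hmgcs1, against 43.3%. The median log2 change of the 8 genes was -0.05, and that of all tested genes was 0.0049. The 3 genes that changed were Dhcr7, Srebf2 and Hmgcs1, and they did not move together: the last enzyme of the pathway and the regulator were lower, and an early enzyme was higher. In 2 of the 8 genes (25.0%) the 4 values of one group did not overlap those of the other, against 32.6% of all tested genes. In 3 of the 8, Dhcr7, Srebf2 and Hmgcs1, the 4 same-numbered pairs went the same way, against 54.5% of all tested genes.

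**Figure D1:**
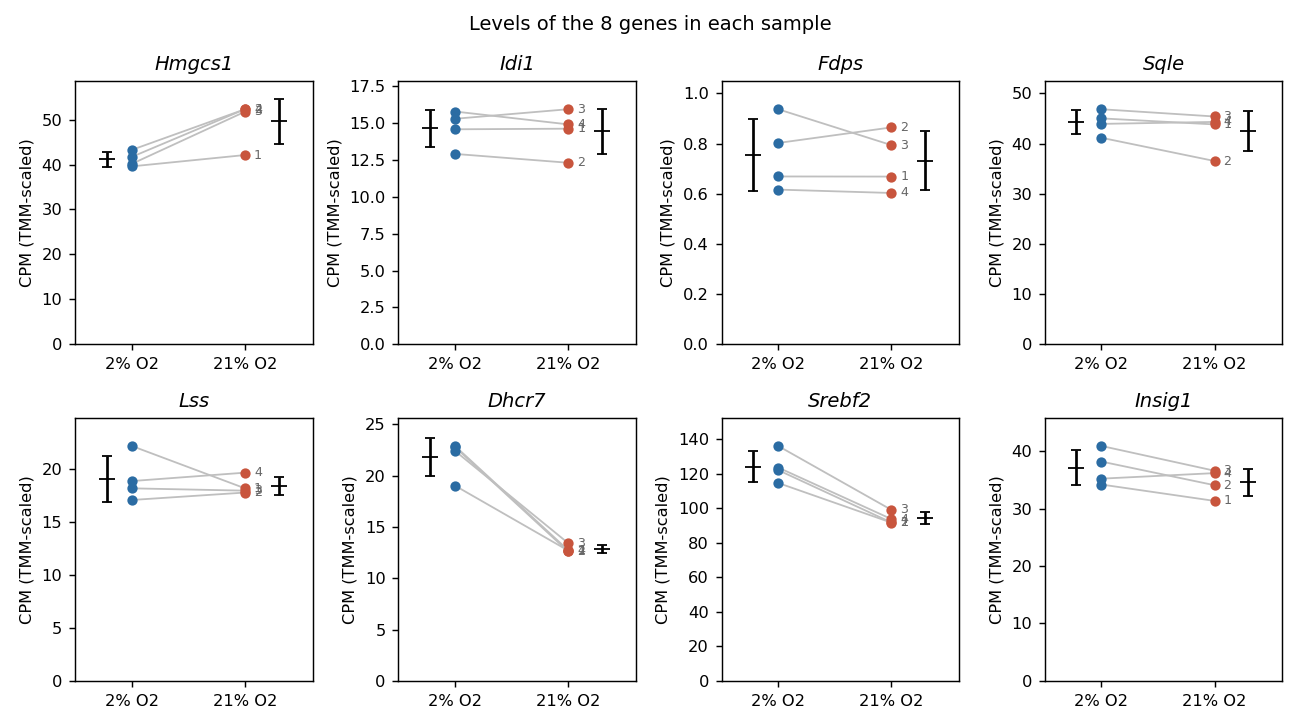
TMM-scaled CPM (y axis, from 0) of the 8 genes in each hypoxia (2% O2, blue) and normoxia (21% O2, red) sample. Grey lines join samples of the same number, small figures give the number, and black bars are the mean ± SD (n = 4). Dhcr7 and Srebf2 lie lower in all 4 normoxia samples, Hmgcs1 lies higher in 3 of them, and the other 5 genes overlap.

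Srebf2 encodes the regulator itself. It lies at chromosome 15, 82147181 to 82205379 on the plus strand of GRCm38 (ENSMUSG00000022463), with the microRNA gene Mir33 inside it. It measured 122, 115, 136 and 124 CPM in hypoxia samples 1 to 4 and 91.7, 91.6, 99.0 and 93.7 CPM in normoxia samples 1 to 4. Every hypoxia sample was above every normoxia sample, and all 4 same-numbered pairs went the same way. Srebf2 fell from 124 ± 8.89 CPM in hypoxia to 94.0 ± 3.47 CPM in normoxia (mean ± SD, n = 4 each), a log2 change of -0.40 ± 0.062 (SE, 95% confidence interval -0.53 to -0.26, limma-trend adjusted p = 0.00063), or 0.76 times its level in hypoxia. After removing trends with the GC content and length of transcripts, the log2 change was -0.24 (limma-trend adjusted p = 0.0075). The GC content of its longest transcript was the highest of the 8 genes, at 57.9%.

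Insig1 encodes the sterol-dependent anchor that holds SCAP in the endoplasmic reticulum and is commonly read as a reporter of SREBP2 activity. It lies at chromosome 5, 28071363 to 28078662 on the plus strand (ENSMUSG00000045294). It measured 34.2, 38.2, 40.9 and 35.2 CPM in hypoxia samples 1 to 4 and 31.3, 34.1, 36.6 and 36.2 CPM in normoxia samples 1 to 4. The groups overlapped, and the highest value was in sample 3 of each group. The log2 change was -0.10 (95% confidence interval -0.28 to 0.07, limma-trend adjusted p = 0.35). A pseudogene, Gm37784, shares 189 bases with it at 98.9% identity and had 0 to 1 counts.

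Hmgcs1, Idi1 and Fdps act before squalene. Hmgcs1 encodes cytosolic HMG-CoA synthase, which condenses acetyl-CoA with acetoacetyl-CoA, and lies at chromosome 13, 119690379 to 119708260 on the plus strand (ENSMUSG00000093930). It measured 39.6, 43.2, 40.1 and 41.7 CPM in hypoxia samples 1 to 4 and 42.1, 52.3, 51.7 and 52.3 CPM in normoxia samples 1 to 4. Normoxia samples 2, 3 and 4 were above every hypoxia sample, and normoxia sample 1 lay within the range of hypoxia. Hmgcs1 rose from 41.2 ± 1.65 to 49.6 ± 5.01 CPM (mean ± SD, n = 4 each), a log2 change of 0.26 ± 0.08 (SE, 95% confidence interval 0.09 to 0.44, limma-trend adjusted p = 0.023). After the GC and length correction the log2 change was 0.08 (adjusted p = 0.52 in limma-trend), so the call was lost. It was also lost without hypoxia sample 3 (limma-trend adjusted p = 0.060), or without normoxia sample 2 (0.078), 3 (0.074) or 4 (0.076).

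Idi1 encodes isopentenyl-diphosphate isomerase, which interconverts the building blocks of isoprenoids. It measured 14.6, 12.9, 15.3 and 15.8 CPM in hypoxia samples 1 to 4 and 14.6, 12.3, 15.9 and 14.9 CPM in normoxia samples 1 to 4, with sample 2 lowest in each group and complete overlap between groups. The log2 change was -0.02 (95% confidence interval -0.25 to 0.21, limma-trend adjusted p = 0.90). In a fit that joined the replicate block to the correction for GC content and length, it was -0.22 with a limma-trend adjusted p of 0.044. A processed pseudogene of Idi1, Gm13502, is identical to it over 684 bases and had 11 to 17 counts, so that reads of the pair may have been split between them.

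Fdps encodes farnesyl diphosphate synthase, which makes the last common precursor of sterols and prenyl groups. It measured 0.669, 0.802, 0.937 and 0.616 CPM in hypoxia samples 1 to 4 and 0.668, 0.864, 0.794 and 0.603 CPM in normoxia samples 1 to 4, which was only 8 to 16 counts per sample. The log2 change was -0.03 and its 95% confidence interval was wide, at -0.54 to 0.48 (limma-trend adjusted p = 0.93). A change of the size seen in Srebf2 was not detectable with so few counts. The annotation has another gene, Gm43738, on the same strand, which contains 1124 of the 1308 coding bases of Fdps (85.9%) and was listed at 0 counts in every sample. Reads from those bases belong to both genes, and the level of Fdps is therefore uncertain.

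Sqle and Lss carry squalene to lanosterol, and neither passed the test. Sqle encodes squalene epoxidase, an oxygen-using enzyme and a control point of the pathway. It measured 45.0, 41.2, 46.8 and 43.9 CPM in hypoxia samples 1 to 4 and 43.8, 36.5, 45.4 and 44.3 CPM in normoxia samples 1 to 4, and the only sample apart was normoxia sample 2. The log2 change was -0.06 (95% confidence interval -0.23 to 0.11, limma-trend adjusted p = 0.60). Lss encodes lanosterol synthase, which folds oxidized squalene into lanosterol. It measured 22.2, 17.1, 18.2 and 18.9 CPM in hypoxia samples 1 to 4 and 18.2, 17.8, 18.0 and 19.7 CPM in normoxia samples 1 to 4, with hypoxia sample 1 the highest and the others between 17.1 and 19.7 CPM. The log2 change was -0.05 (95% confidence interval -0.25 to 0.16, limma-trend adjusted p = 0.74).

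Dhcr7 encodes 7-dehydrocholesterol reductase, the final step to cholesterol, and showed the largest change of the 8 genes. It lies at chromosome 7, 143823145 to 143848410 on the plus strand (ENSMUSG00000058454). It measured 19.0, 22.8, 22.4 and 22.9 CPM in hypoxia samples 1 to 4 and 12.7, 12.6, 13.4 and 12.7 CPM in normoxia samples 1 to 4. The 4 normoxia samples lay within 1 CPM of each other and below every hypoxia sample, of which sample 1 was the lowest. Dhcr7 fell from 21.8 ± 1.85 to 12.9 ± 0.376 CPM (mean ± SD, n = 4 each), a log2 change of -0.75 ± 0.088 (SE, 95% confidence interval -0.94 to -0.55, limma-trend adjusted p = 0.00013), or 0.60 times its level in hypoxia. The differences within same-numbered pairs were -0.58, -0.84, -0.73 and -0.84 on the log2 scale. With the GC and length correction the log2 change was -0.68 (limma-trend adjusted p = 0.00021).

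Compared per length, in TPM, which scales counts to gene length and library size, the order of the levels in hypoxia was Srebf2 (59.6 ± 3.90), Insig1 (41.5 ± 3.67), Hmgcs1 (30.9 ± 1.64), Sqle (27.5 ± 1.22), Idi1 (14.4 ± 1.09), Dhcr7 (12.9 ± 1.20), Lss (6.10 ± 0.637) and Fdps (0.621 ± 0.121; mean ± SD, n = 4). Idi1 and Dhcr7 were neighbours whose means differed by no more than the sum of their SDs. The place of Fdps is uncertain, since 85.9% of its coding bases are shared with Gm43738. TPM divides by the summed exon length of a gene, which was longest for Lss, at 10787 bases, so the order depends on the annotation. In normoxia the TPM level of Srebf2 was 49.4, of Insig1 42.2 and of Hmgcs1 40.8, which brought Insig1 and Hmgcs1 within the sum of their SDs, and Dhcr7 was at 8.35 against 15.6 for Idi1. TPM used no TMM factors, so changes between the groups differ from those in CPM. Insig1 had means of 37.1 CPM in hypoxia and 34.5 CPM in normoxia, and Hmgcs1 of 41.2 and 49.6 CPM.

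Of the enzymes of the pathway outside the 8 genes, 14 were taken as a list, all of them tested. Of these 2 were higher and 4 lower in normoxia, so 42.9% were called against the background of 34.6%, and the median log2 change was -0.19. With the replicate block 10 were called, where 46.0% of all genes were. Ggps1, which makes the geranylgeranyl diphosphate used to prenylate proteins and lies on a branch away from sterols, measured 23.1, 23.0, 20.5 and 23.5 CPM in hypoxia samples 1 to 4 and 35.5, 37.7, 33.3 and 36.9 CPM in normoxia samples 1 to 4. All normoxia samples were above all hypoxia samples, of which sample 3 was the lowest. It rose from 22.5 ± 1.39 to 35.8 ± 1.92 CPM (n = 4 each), a log2 change of 0.67 ± 0.075 (SE, limma-trend adjusted p = 0.00011), or 0.43 after the GC and length correction. It overlaps Arid4b on the opposite strand over 257 transcribed bases, and whether the counting used strand is not stated. Sc5d, the lathosterol oxidase, rose by 0.24 (limma-trend adjusted p = 0.024), and after the GC and length correction its log2 change was 0.04 (limma-trend adjusted p = 0.69).

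The 4 lower enzymes were Mvk, Tm7sf2, Msmo1 and Ebp. Ebp, the sterol isomerase, measured 33.2, 29.2, 36.0 and 37.4 CPM in hypoxia samples 1 to 4 and 24.9, 18.8, 22.1 and 23.4 CPM in normoxia samples 1 to 4. All normoxia samples were below all hypoxia samples, and sample 2 was the lowest of each group. Ebp fell from 33.9 ± 3.60 to 22.3 ± 2.60 CPM (n = 4 each), a log2 change of -0.60 ± 0.10 (SE, limma-trend adjusted p = 0.001). Tm7sf2, a sterol C14 reductase, fell from 10.4 to 4.81 CPM (log2 change -1.10, limma-trend adjusted p = 0.0007), and shares 532 bases on its strand with Vps51. Lbr, which carries the same reductase activity, had a log2 change of -0.21 (limma-trend adjusted p = 0.21, or 0.036 with the replicate block). Mvk, mevalonate kinase, fell by 0.44 on the log2 scale (limma-trend adjusted p = 0.0023), with a corrected log2 change of -0.28. Msmo1, the methylsterol monooxygenase, had a log2 change of -0.23 with a limma-trend adjusted p of 0.04, which did not hold in 11 of 23 alternative analyses, and a GC- and length-corrected log2 change of -0.37. Its longest transcript shares up to 203 bases, at 95% identity or more, with many other genes, among them Map4 with 6757 to 15061 counts.

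Pmvk and Mvd, which follow Mvk, did not pass the test without pairing (limma-trend adjusted p = 0.068 at a log2 change of -0.33, and 0.12 at -0.30). Both passed with the replicate block (limma-trend adjusted p = 0.017 for Pmvk and 0.025 for Mvd), as did Fdft1, the squalene synthase (log2 change -0.18, adjusted p = 0.081 without and 0.046 with the block), which overlaps the highly counted Ctsb on the opposite strand. Acat2, which makes acetoacetyl-CoA and has a close copy in Acat3, Cyp51, the lanosterol demethylase, and the sterol dehydrogenases Nsdhl and Hsd17b7 passed in neither fit, with log2 changes of 0.10, -0.02, -0.13 and 0.10. Acat2 also shares 445 bases at 98.7% identity with Tcp1, and Tcp1 had 2147 to 5140 counts against 224 to 486 for Acat2. All 14 enzymes and the 6 enzymes among the 8 genes are in the plot of log2 changes in pathway order. Grouped by position, a grouping made after the values were seen, 2 of 8 enzymes before squalene were called (1 higher, 1 lower), neither of the 2 enzymes from squalene to lanosterol was, and 5 of 9 enzymes after lanosterol were (1 higher, 4 lower). With the replicate block the counts were 5 of 8, 0 of 2 and 6 of 9. All tested genes were called at 34.6% without and 46.0% with the block, and the difference between these groups of enzymes was not tested. Their median log2 changes were -0.10, -0.05 and -0.21. Of the 4 enzymes that use molecular oxygen, Sqle, Cyp51, Msmo1 and Sc5d, 1 was higher and 1 was lower.

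**Figure D2:**
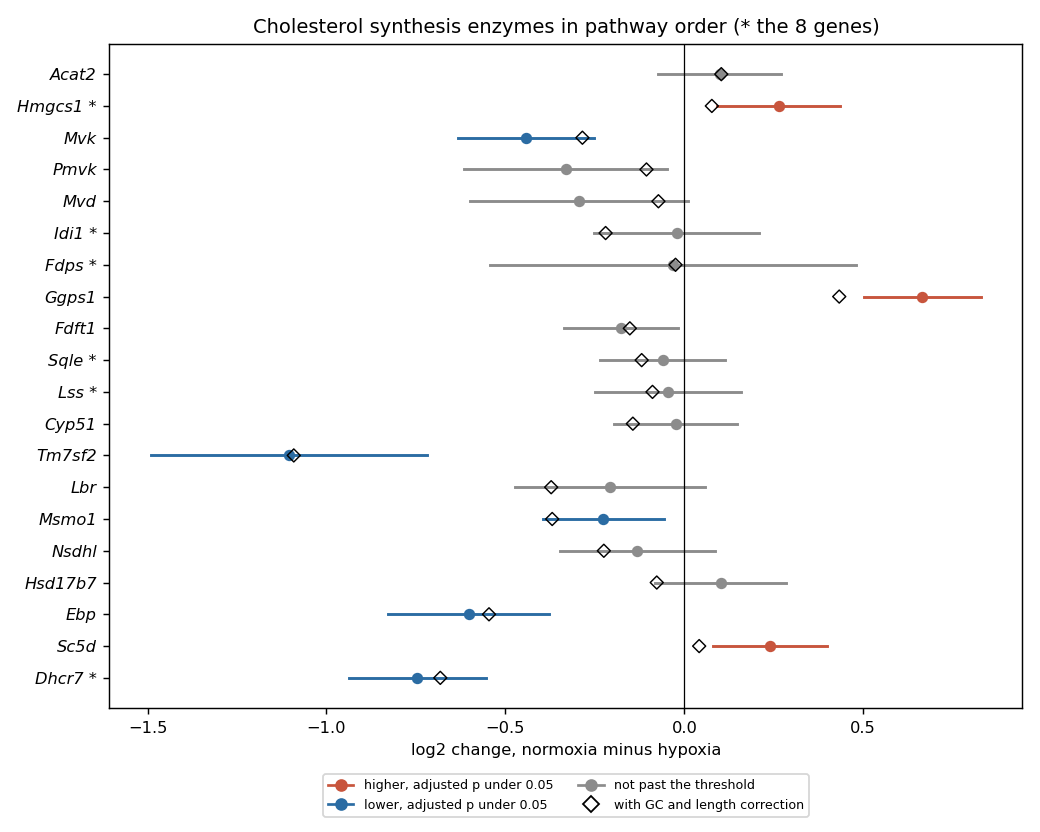
Log2 change (normoxia minus hypoxia, x axis) of the synthesis enzymes in the order in which they act, with 95% confidence intervals, and asterisks mark those among the 8 genes. Red and blue are higher and lower at an adjusted p under 0.05 (limma-trend), grey did not pass, and open diamonds are the GC- and length-corrected values. The diamond of Hmgcs1 lies at 0.08.

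Of 9 other genes of sterol sensing and SREBP processing 5 passed the test (55.6%), against 34.6% of all tested genes. Of the 5, 2 were higher and 3 lower in normoxia, and the median log2 change of the 9 was 0.12. With the replicate block 6 passed, against 46.0% of all genes. After the GC and length correction only 2 of the 9 passed, against 30.0% of all genes. Scap, the escort of SREBP2, fell from 70.6 ± 1.41 to 59.2 ± 2.14 CPM (n = 4 each), with a log2 change of -0.25 ± 0.055 (SE, limma-trend adjusted p = 0.004). Its values were 69.1, 71.5, 69.8 and 72.1 CPM in hypoxia samples 1 to 4 and 58.1, 62.2, 57.2 and 59.2 CPM in normoxia samples 1 to 4, and the groups did not overlap. Srebf1, which encodes the related factor SREBP1, had a log2 change of -0.21 (limma-trend adjusted p = 0.036), and its call was lost in 10 of 23 alternative analyses. After the GC and length correction the log2 changes of Scap and Srebf1 were -0.09 and -0.05 (limma-trend adjusted p = 0.26 and 0.59). Rnf139, a ubiquitin ligase of the endoplasmic reticulum, was at the threshold with a log2 change of -0.22 (limma-trend adjusted p = 0.0499), a call lost in 14 of the 23, with a corrected log2 change of -0.44, and it overlaps Tatdn1 on the opposite strand.

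Insig2, the paralog of Insig1, measured 42.7, 38.3, 41.5 and 47.6 CPM in hypoxia samples 1 to 4 and 58.4, 49.6, 48.6 and 52.5 CPM in normoxia samples 1 to 4. All normoxia samples were above all hypoxia samples, and the log2 change was 0.30 ± 0.082 (SE, limma-trend adjusted p = 0.015), while after the GC and length correction it was 0.19 (limma-trend adjusted p = 0.076, or 0.011 with the replicate block added). Erlin2, an endoplasmic reticulum protein that binds cholesterol-rich membrane, rose by 0.27 (limma-trend adjusted p = 0.0022), or 0.14 after the correction (limma-trend adjusted p = 0.045), and its partner Erlin1 had a log2 change of 0.20 (limma-trend adjusted p = 0.074, or 0.01 with the replicate block). The proteases that release SREBP2, encoded by Mbtps1 and Mbtps2, had log2 changes of -0.01 (95% confidence interval -0.13 to 0.11) and 0.16 (0.00 to 0.31) and did not pass the test, nor did the ubiquitin ligase Rnf145, with a log2 change of 0.12.

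Of 9 genes of cholesterol uptake and transport 3 passed the test (33.3%), against 34.6% of all tested genes. With the replicate block, which added Stard4 and Lipa, 5 passed, against 46.0% of all genes. Lrp1, an endocytic receptor for lipoproteins, fell from 2209 to 1491 CPM (log2 change -0.56, limma-trend adjusted p = 0.0017), and its log2 change after the GC and length correction was -0.31 (limma-trend adjusted p = 0.0083). Npc1, which moves cholesterol out of lysosomes, fell by 0.20 on the log2 scale (limma-trend adjusted p = 0.022) with a corrected log2 change of -0.33, and Osbpl2, a lipid transfer protein, rose by 0.35 (limma-trend adjusted p = 0.0017).

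Of 10 genes of cholesterol efflux, storage and the sterol sensor LXR 5 passed the test (50%), against 34.6% of all tested genes. Of the 5, 1 was higher and 4 lower, and the median log2 change of the 10 was -0.21. With the replicate block 7 passed, against 46.0% of all genes. Apoe, the lipoprotein that carries cholesterol out of cells, measured 32.0, 47.3, 45.8 and 58.4 CPM in hypoxia samples 1 to 4 and 17.1, 15.1, 16.2 and 17.8 CPM in normoxia samples 1 to 4. Every normoxia sample was below every hypoxia sample, of which sample 1 was the lowest, and the log2 change was -1.43 ± 0.15 (SE, limma-trend adjusted p = 7.4e-05). The sterol hydroxylases Cyp7b1 and Cyp27a1, which make oxysterols or clear them, fell by 1.25 and 0.82 on the log2 scale (limma-trend adjusted p = 0.0013 and 0.0053). Soat1, which esterifies cholesterol for storage, fell by 0.27 (limma-trend adjusted p = 0.0037), with a GC- and length-corrected log2 change of -0.42. Abca1, the LXR-induced cholesterol exporter, went the other way and rose by 0.46 (limma-trend adjusted p = 0.0056), while Abcg1, another LXR target, had a log2 change of 0.12 and did not pass. With the replicate block Nr1h2, an LXR gene, and Mylip, an LXR target, also passed (log2 changes of -0.15 and -0.37, limma-trend adjusted p = 0.048 and 0.00019).

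**Figure D3:**
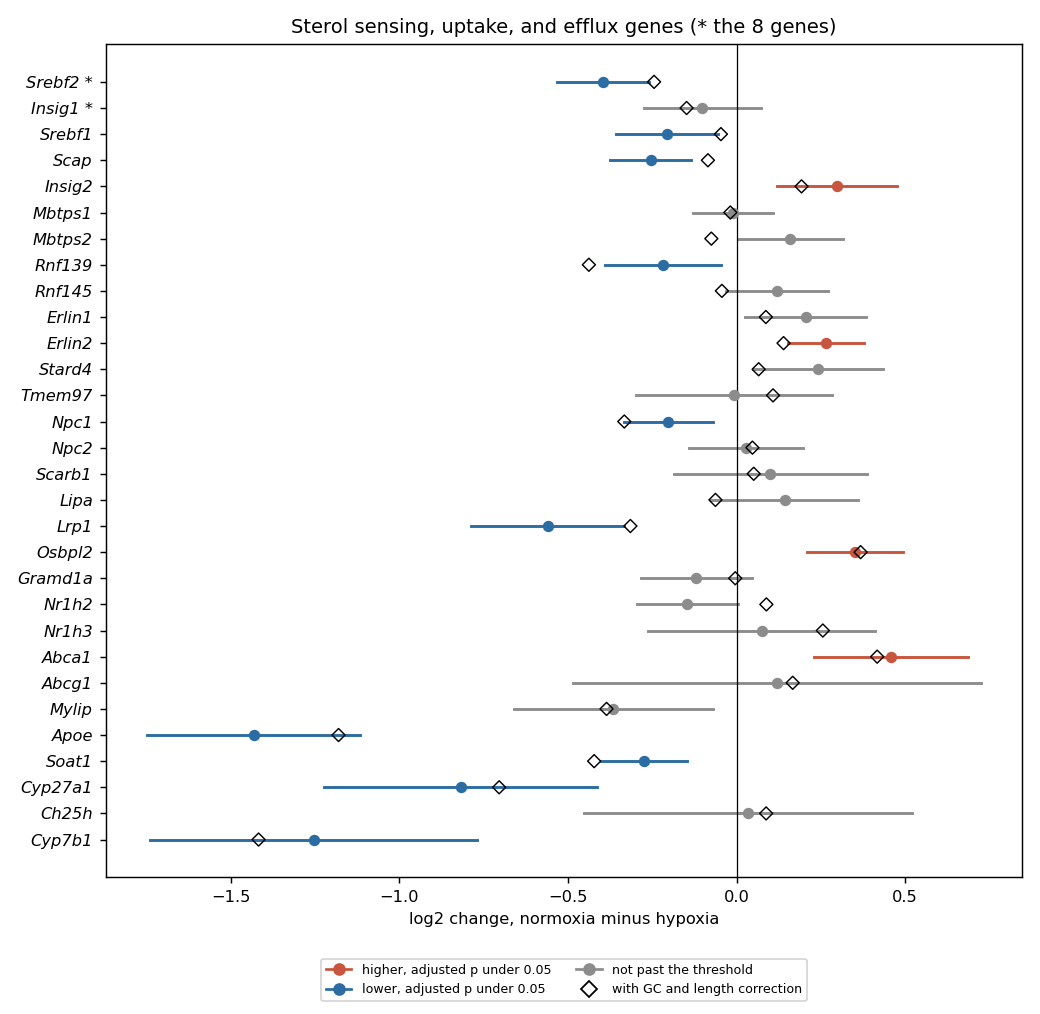
Log2 change (normoxia minus hypoxia, x axis) with 95% confidence interval of Srebf2 and Insig1, marked by asterisks, and of the sensing, uptake and efflux genes in that order from the top. Colours and open diamonds (GC- and length-corrected values) are as in the plot of the enzymes. Srebf2, Srebf1 and Scap lie to the left with Apoe, Cyp7b1 and Cyp27a1 farthest out, and Insig2, Erlin2, Osbpl2 and Abca1 lie to the right.

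To see whether the 8 genes varied together within groups, their deviations were compared. Over the 8 samples, after centring on the group means, the 28 pairs of genes had a median Pearson r of 0.19, from -0.84 for Lss and Dhcr7 to 0.90 for Sqle and Idi1, and 19 pairs were positive. A score, the mean of the 8 scaled deviations, was highest in both samples numbered 3 (0.69 in hypoxia and 0.68 in normoxia) and lowest in normoxia sample 1 (-0.52). All values of a sample come from 1 library, and same-numbered samples were taken to be paired because they correlated best. These are therefore descriptions, and the 8 points are not treated as independent. Among 9388 genes with a mean log2 CPM of at least 3, the 10 whose deviations were most like the score were Grk2, Trpm4, Spi1, Cdk18, Gmip, Adam8, Psd4, Dtx4, Ppcs and Cndp2, with r from 0.98 to 0.95, Spearman's rho from 0.79 to 0.95, and r from 0.85 to 0.96 without the samples numbered 3, which lie farthest out. Spi1 encodes the myeloid transcription factor PU.1. Of the listed cholesterol genes, Npc1 (r = 0.93), Pmvk (0.86) and Lipa (0.81) were among the most like it. Ggps1 (r = -0.76), Rnf145 (-0.71) and Sc5d (-0.58) went against it most.

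The score moved with the summed CPM of the 7 macrophage markers, which was 474, 643, 934 and 757 CPM in hypoxia samples 1 to 4 and 587, 691, 1090 and 811 CPM in normoxia samples 1 to 4. Over the 8 samples, with the log2 sum centred on the group means, r was 0.91 and Spearman's rho 0.81, and r was 0.71 without the samples numbered 3. Insig1 (r = 0.82), Dhcr7 (0.74) and Srebf2 (0.72) showed it most, and for Srebf2 r was 0.11 without the samples numbered 3. For Idi1, Hmgcs1, Fdps and Sqle r was 0.49, 0.46, 0.39 and 0.36, and Lss went the other way (-0.44). Without the samples numbered 3, r was 0.17 for Idi1, 0.66 for Hmgcs1, -0.18 for Fdps, -0.11 for Sqle and -0.41 for Lss. With the 9 cycling genes the r of the score was -0.10, where members of opposite sign cancelled. Dhcr7 (r = -0.74), Hmgcs1 (-0.73) and Lss (0.74) moved with the cycling genes, or against them, and r was -0.80, -0.74 and 0.77 without the samples numbered 3. With the 9 MSC markers the r of the score was -0.09. For Hmgcs1, Dhcr7, Insig1 and Fdps r was 0.65, 0.64, 0.30 and -0.01. For Idi1, Srebf2, Sqle and Lss it was -0.39, -0.43, -0.54 and -0.58. Without the samples numbered 3, r was 0.39 for the score. It was then 0.73, 0.86, 0.78 and 0.26 for Hmgcs1, Dhcr7, Insig1 and Fdps. For Idi1, Srebf2, Sqle and Lss it was -0.29, -0.35, -0.46 and -0.73. The direction of the macrophage sum between groups rested on Lyz2, its largest part. With Lyz2 the sum was lower in hypoxia in each same-numbered pair. Without it, an alternative chosen after seeing the data, the other 6 markers summed to 214, 303, 497 and 380.0 CPM in hypoxia samples 1 to 4 and 187, 226, 399 and 275 CPM in normoxia samples 1 to 4. They were thus higher in hypoxia in each pair, and the r of the score with them was 0.91. Lyz2 alone passed the test without the block, with a log2 change of 0.56. With the replicate block Lyz2 was higher in normoxia (limma-trend adjusted p = 3.8e-09). Csf1r, Cd68 and Itgam were lower, with log2 changes of -0.59, -0.28 and -0.46 (limma-trend adjusted p = 6.7e-09, 0.0028 and 0.0011). Ptprc, Adgre1 and Cd14 did not pass with the block, with log2 changes of 0.08, -0.11 and -0.26 (limma-trend adjusted p = 0.61, 0.13 and 0.071). The median log2 change of the 7 markers was -0.26. The part of macrophage RNA, of cycling cells, or of cells with MSC markers, in the levels of the 8 genes was not tested.

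**Figure D4:**
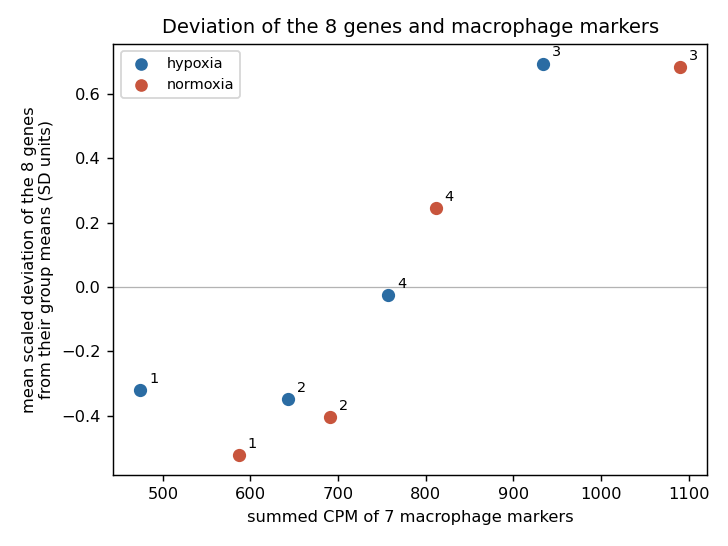
Mean scaled deviation of the 8 genes from their group means (y axis, SD units) against the summed CPM of 7 macrophage markers (x axis), 1 point per sample, blue for hypoxia and red for normoxia, with replicate numbers. Points of the same number lie near each other, from sample 1 at the lower left to sample 3 at the upper right (934 and 1090 CPM).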

How the data were processed

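RNA-seq counts of 8 bone MSC samples, 4 from hypoxia and 4 from normoxia, grouped by the labels, were analysed. The authors prepared total RNA libraries, sequenced single-end reads, processed them with zUMIs, STAR and featureCounts on mm10 with an Ensembl annotation, and deposited raw counts per gene for 53465 identifiers. Whether the counting used strand or reads with several positions is not given in the sources used here. Symbols and positions were taken from GENCODE M21 (GRCm38, the same build) for 53360 identifiers, and those without a symbol held 0.00364% of the counts. Promoters were from RefSeq.

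As in the study, low-count genes were removed with filterByExpr (edgeR 4.0.16, minimum count 5), and the rest were compared by limma-trend (limma 3.58.1, R 4.3.3) with Benjamini-Hochberg adjustment over all 14369 tested genes at 0.05. TMM scaling and a prior count of 3 were chosen here. Log2 changes are normoxia minus hypoxia, and understate changes of genes with few counts. TPM used the summed exon length of each gene and no TMM factors. Total counts ranged from 12898291 to 25132141, and the floor of 3 counts covers counting error only. The alternatives were the edgeR quasi-likelihood test, DESeq2 1.42.0, limma-voom, other scalings, filters and prior counts, each sample left out, hypoxia sample 1 thinned, and a spline correction (5 degrees of freedom each) for GC content and length, which also removes true changes that follow them. The method was tested on simulated data.

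The study divided a sorted population between oxygen levels, and deviations from the group means correlated between same-numbered samples at 0.47, 0.28, 0.25 and 0.17 for numbers 1 to 4, each sample correlating best with its own number. The numbers were therefore taken to pair the samples, and fits with and without the replicate block are given. Genes were searched for copies of at least 95% identity over 150 bases.

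The 8 genes and the lists were chosen with earlier results of these data known. Named were the 8 genes, all listed enzymes and sensing genes, and the uptake and efflux genes past the threshold (up to 5 a list). Stard4, Lipa, Pmvk as a like gene, Abcg1, Nr1h2, Mylip, Lyz2, Csf1r, Cd68, Itgam, Ptprc, Adgre1 and Cd14 were named after their values were seen. Some genes of these pathways are not reported here, and the counts leave them out.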

Additional observations from a re-analysis of the deposited data

Results flagged for a closer look

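In 80 groups of 4 values, 1 sample stood apart from the other 3 by more than Dixon's 95% limit in 9, counting library totals, where chance gives about 4. Among the 8 genes, the log2 CPM of Hmgcs1 was 5.40 in normoxia sample 1 against 5.70 to 5.71 in the others of its group. Sqle was at 5.20 in normoxia sample 2, against 5.46 to 5.51. Dhcr7 was at 4.26 in hypoxia sample 1, against 4.50 to 4.53, and at 3.77 in normoxia sample 3, against 3.68 to 3.69, both small beside the distance between the groups. In hypoxia sample 3, Sc5d was at 5.01 against 5.09 to 5.11, and Ggps1 at 4.37 against 4.54 to 4.57. Msmo1 was at 4.87 in hypoxia sample 2 against 5.12 to 5.15, and Srebf1 at 6.43 in normoxia sample 1 against 6.52 to 6.54. Hypoxia sample 1 had 25132141 counts against 12929564 to 13219647 in the others.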

How the results depend on the processing

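The calls of Dhcr7 and Srebf2 kept their direction and their side of the threshold in all 23 alternatives (22 planned, 1 chosen after seeing the data), and that of Hmgcs1 in 17. The number of the 8 genes called was 3, with 2 after the GC and length correction and 2 to 3 when single samples were left out. With the replicate block it was also 3, while all called genes went from 4970 to 6610 (46.0%), and a block joined to the GC and length correction gave 3, Idi1 in place of Hmgcs1. The block also moved the enzymes called from 6 to 10 and the uptake genes from 3 to 5 (7 and 4 without both samples numbered 1). The sensing genes called went from 5 to 3 without a filter, 2 with the GC and length correction, 3 with that correction and the block, and 3 without both samples numbered 1. With single samples left out they were 2 to 5: 2 without normoxia sample 1, and 3 without hypoxia sample 1, 2 or 3 or normoxia sample 3. Uptake genes ranged from 2 to 4 and enzymes from 4 to 7 with single samples left out.

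Log2 changes that turned sign were all of genes that did not pass the test. With library totals only, they were 0.027 for Sqle, 0.066 for Idi1, 0.036 for Fdps, 0.041 for Lss, 0.063 for Cyp51 and 0.076 for Mbtps1. With the GC and length correction, with or without the block, they were -0.077 for Hsd17b7, -0.075 for Mbtps2 and -0.044 for Rnf145. Fdps was at 0.015 with hypoxia sample 1 thinned, and Lss at 0.026 and Cyp51 at 0.0097 without both samples numbered 1, with or without the block. With single samples left out, log2 changes ranged from -0.079 to 0.041 for Idi1, -0.11 to 0.054 for Fdps, -0.096 to 0.028 for Lss, -0.094 to 0.022 for Cyp51 and -0.037 to 0.026 for Mbtps1. The causes were not tested. Fdps was limited by its few counts, 8 to 16 per sample, and 85.9% of its coding bases are shared with Gm43738.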
